A study of Mus musculus with 4 samples.

Results

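Forkhead transcription factor genes were examined in mouse regulatory T (Treg) cells with and without an intact Foxp3 gene, to set Foxp3 beside its paralogues in the same cells. The set held Foxp3, Foxp1, Foxp4, Foxo1, Foxo3, Foxj2, Foxj3 and Foxn3. Every probe set whose gene symbol in the platform annotation was exactly 1 of these 8 was taken, which gave 28 of the 45101 probe sets on the array, for 8 of 18193 genes. There were 4 single-colour oligonucleotide arrays in 2 groups. The Foxp3-deleted group (2 arrays, labelled Foxp3delta) came from T cells with a loxP-flanked Foxp3 gene. The Foxp3 wild-type group (2 arrays, labelled Foxp3+) came from T cells whose Foxp3 gene was wild type. Cells of both groups had been treated with the Cre construct HR-MMPCreGFP, were transferred into host animals, and were recovered 6 weeks later as CD4+ YFP+ Ly5.2+ cells. The labels do not say what drives YFP, which part of Foxp3 the loxP sites flank, or whether the samples of a group came from separate animals. The p-values therefore rest on the spread between samples that may be technical replicates.

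Forkhead proteins bind DNA through a winged-helix domain that recognises sequences with the core TAAACA. FOXP proteins act mainly as repressors and bind DNA as dimers, and FOXP3 is required for the suppressive function of Treg cells. FOXO proteins are held in the cytoplasm when the PI3K and AKT pathway phosphorylates them. In the nucleus they drive genes of quiescence, homing and cell death, and in T cells they bind the Foxp3 locus and help to switch it on.

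Values are log2 of the deposited GCRMA intensity, and a difference is always the Foxp3-deleted mean minus the Foxp3 wild-type mean. Probe sets that averaged 4 or more on this scale over the 4 arrays were tested together in limma, 13999 in all, and 21 of the 28 forkhead probe sets were among them. The median difference over the tested probe sets was 0.0062. The arrays did not fall cleanly by group. Over these probe sets the root mean square log2 difference was 0.721 between the Foxp3-deleted arrays and 0.819 between the wild-type arrays, and between groups it ran from 0.732 (deleted replicate 1 and wild-type replicate 2) to 1.03. All 7 measured CD4 T cell markers passed the filter, and the CD8 markers Cd8a and Cd8b1 were below it. All 7 Treg markers, Foxp3 among them, passed as well, and their sum was 3040 and 4970 in Foxp3-deleted arrays, against 20631 and 21487 in wild-type arrays. Deleted replicate 1 stood apart on markers of other cells. The summed intensity of 8 myeloid markers was 1841 and 618.2 in Foxp3-deleted arrays, against 638.5 and 516.2 in wild-type arrays, and that of 4 NK cell markers was 1947 and 419.6 in Foxp3-deleted arrays, against 270.4 and 364.8 in wild-type arrays. Examples are Lyz2 (lysozyme) and Gzma (granzyme A). Lyz2 read 9.69 and 6.30 in Foxp3-deleted arrays, against 5.65 and 7.24 in wild-type arrays. Gzma read 10.75 and 8.504 in Foxp3-deleted arrays, against 7.41 and 8.24 in wild-type arrays. Most of the NK cell sum came from Gzma alone on every array. Cd68, Fcgr3 and Klrk1, whose means were below the filter, also read highest on deleted replicate 1. Csf1r read 9.85 and 8.93 in Foxp3-deleted arrays, against 9.06 and 8.30 in wild-type arrays. The myeloid marker Adgre1 passed the filter and was level, at 4.33 and 4.44 in Foxp3-deleted arrays, against 4.36 and 4.32 in wild-type arrays. On the same lists Cd14, Itgam, Itgax and Ncr1 were below the filter on all 4 arrays. Of 3 gamma-delta markers only Cd163l1 passed the filter, with Sox13 and Zbtb16 level and below it. The sum of the 3 was 83.8 and 113.2 in Foxp3-deleted arrays, against 25.4 and 27.8 in wild-type arrays. The rise came from Cd163l1 alone, which read 6.15 and 6.65 in Foxp3-deleted arrays, against 3.66 and 3.93 in wild-type arrays. It passed the filter only through the deleted arrays. Of 6 B cell markers 2 passed the filter, and the sum of all 6 was 106.9 and 141.5 in Foxp3-deleted arrays, against 183.5 and 135.7 in wild-type arrays. Those 2 differed in opposite directions. Cd79b read 4.04 and 4.94 in Foxp3-deleted arrays, against 6.58 and 6.49 in wild-type arrays, and Cd22 read 5.86 and 6.33 in Foxp3-deleted arrays, against 5.70 and 3.76 in wild-type arrays. The part of other cells in the results below was not tested, and fewer cells of a type cannot be told apart from less RNA per cell.

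Among the 8 genes only Foxp3 had a probe set lower by at least 1 on the log2 scale without overlap between groups, as had 4.44% of all tested probe sets. Its single probe set, 1420765_a_at, read 8.77 and 8.75 in the Foxp3-deleted arrays, against 11.40 and 11.23 in the wild-type arrays (log2 intensity). Both deleted arrays lay far below both wild-type arrays, and the replicates of each group lay close together. The group means were 8.76 ± 0.02 in Foxp3-deleted cells and 11.31 ± 0.12 in wild-type cells (SD, n = 2 each). The difference was -2.55 (SE 0.27, 95% interval -3.24 to -1.86), which puts the deleted signal at 17.0% of the wild-type signal, and without deleted replicate 1 it was -2.57. In limma the adjusted p was 0.106, and none of the 13999 probe sets passed 0.05, so the share called was 0%. At an unadjusted p below 0.05 there were 1338 probe sets (9.56%), and 2 of the 21 forkhead probe sets, of Foxp3 and Foxp1, were among them. On the lower side, 59 tested probe sets had a more negative difference than Foxp3, and 26 in either direction had a smaller unadjusted p. No source used here gives the position of the probe set relative to the loxP sites, so its remaining signal does not measure how many cells kept an intact gene.

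Only Foxp3 and Foxp1 of the 8 genes had a probe set that differed by at least 1 without overlap between groups, so the reference sequence at their annotated starts is shown. RefSeq (GRCm38.p6) gives 2 starts for Foxp3 and 3 for Foxp1, and each window runs from 250 bases before the start to 50 after it, 5′ to 3′ on the gene's strand. Capitals mark the forkhead core TAAACA or its reverse complement TGTTTA.
Foxp3, chrX:7579426-7579725, plus strand: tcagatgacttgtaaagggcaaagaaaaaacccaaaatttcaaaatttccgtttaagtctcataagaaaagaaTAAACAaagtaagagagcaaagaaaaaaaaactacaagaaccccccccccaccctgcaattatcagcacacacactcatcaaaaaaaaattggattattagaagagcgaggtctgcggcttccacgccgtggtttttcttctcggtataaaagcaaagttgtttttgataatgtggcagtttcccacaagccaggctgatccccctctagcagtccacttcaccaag
Foxp3, chrX:7580233-7580532, plus strand: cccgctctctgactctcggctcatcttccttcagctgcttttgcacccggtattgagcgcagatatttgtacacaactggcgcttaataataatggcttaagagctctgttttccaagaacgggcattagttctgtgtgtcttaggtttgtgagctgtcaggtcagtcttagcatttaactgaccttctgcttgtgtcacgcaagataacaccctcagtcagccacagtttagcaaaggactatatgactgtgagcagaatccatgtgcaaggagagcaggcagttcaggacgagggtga
Foxp1, chr6:99028249-99028548, minus strand: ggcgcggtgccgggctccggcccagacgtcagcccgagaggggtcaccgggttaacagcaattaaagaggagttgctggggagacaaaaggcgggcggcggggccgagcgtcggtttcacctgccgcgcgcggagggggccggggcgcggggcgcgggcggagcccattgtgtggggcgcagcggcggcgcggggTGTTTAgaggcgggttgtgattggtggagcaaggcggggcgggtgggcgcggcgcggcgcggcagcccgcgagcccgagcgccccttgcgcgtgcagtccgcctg
Foxp1, chr6:99266466-99266765, minus strand: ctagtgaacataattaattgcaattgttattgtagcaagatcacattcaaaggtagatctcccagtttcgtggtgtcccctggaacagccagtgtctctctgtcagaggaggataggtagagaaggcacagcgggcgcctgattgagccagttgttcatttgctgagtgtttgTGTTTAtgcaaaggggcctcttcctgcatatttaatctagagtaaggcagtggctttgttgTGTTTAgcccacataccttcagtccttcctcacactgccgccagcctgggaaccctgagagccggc
Foxp1, chr6:99520944-99521243, minus strand: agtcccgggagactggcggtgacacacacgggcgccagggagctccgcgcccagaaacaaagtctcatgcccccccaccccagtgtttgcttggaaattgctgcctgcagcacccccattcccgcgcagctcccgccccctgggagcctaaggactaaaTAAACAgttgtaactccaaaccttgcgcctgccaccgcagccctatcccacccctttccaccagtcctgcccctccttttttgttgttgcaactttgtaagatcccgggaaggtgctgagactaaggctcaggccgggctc
The upstream Foxp3 window held 1 match and the other Foxp3 window 0. The Foxp1 windows held 1, 2 and 1 matches in the order shown. Of the 11 windows of the 8 genes, 4 held the core on either strand and 7 did not, and Foxp4, Foxo1, Foxo3, Foxj2, Foxj3 and Foxn3 had no match. Among all 32851 promoter windows of the RefSeq table, 13.4% held it. A match is a run of letters and not evidence of binding.

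**Figure D1:**
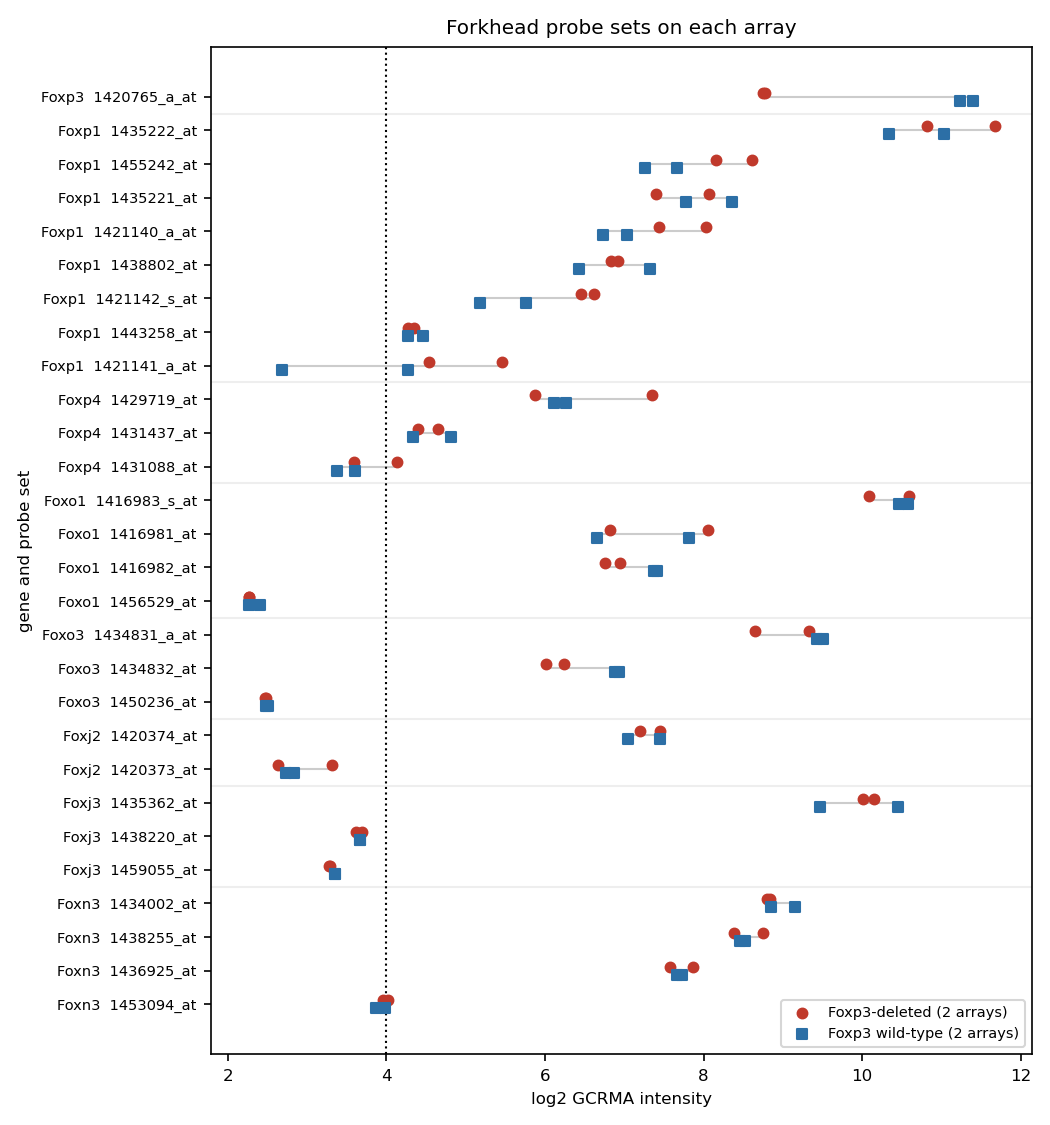
Log2 GCRMA intensity (horizontal axis) of all 28 forkhead probe sets (rows) on each array. Red circles are the 2 Foxp3-deleted arrays, blue squares the 2 Foxp3 wild-type arrays, grey lines the range over the 4 arrays, and the dotted line the filter at 4, which applies to the mean. The Foxp3 groups lie 2.55 apart, and 12 of the 21 tested probe sets have groups that overlap.

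Foxp1 encodes the closest relative of Foxp3 that T cells express strongly. It holds naive T cells in quiescence and can form dimers with Foxp3. All 8 Foxp1 probe sets passed the filter, and 5 had a higher mean in Foxp3-deleted cells and 3 a lower mean, with a median difference of 0.71; 50.5% of all tested probe sets had a higher mean. In 4 of them both deleted arrays lay above both wild-type arrays, and in none did both lie below. Of the 4, 1421141_a_at passed the filter only through the deleted arrays. Over all tested probe sets 19% were higher without overlap. Probe sets of a gene share its RNA and are not replicates of the comparison.

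The brightest Foxp1 probe set, 1435222_at, read 10.82 and 11.67 in Foxp3-deleted arrays, against 11.03 and 10.34 in wild-type arrays, so the groups overlapped. Probe set 1455242_at read 8.16 and 8.61 in Foxp3-deleted arrays, against 7.26 and 7.67 in wild-type arrays. Probe set 1421140_a_at read 7.43 and 8.03 in Foxp3-deleted arrays, against 7.04 and 6.73 in wild-type arrays. In these last 2 probe sets the groups separated, by a mean of 0.92 (SE 0.37, 95% interval -0.04 to 1.88) for 1455242_at and 0.85 (SE 0.39, 95% interval -0.16 to 1.86) for 1421140_a_at. Probe set 1421142_s_at read 6.61 and 6.46 in Foxp3-deleted arrays, against 5.17 and 5.77 in wild-type arrays. Its difference of 1.07 (SE 0.38, 95% interval 0.09 to 2.04) had the smallest p of any paralogue, with an unadjusted p = 0.0380 and an adjusted p = 0.483 in limma. Probe set 1421141_a_at read 5.45 and 4.53 in Foxp3-deleted arrays, against 2.68 and 4.27 in wild-type arrays. Its difference of 1.52 (SE 0.64, adjusted p = 0.558 in limma) depended on the dim wild-type replicate 1, and was 0.72 without that array and 0.86 with values below 4 raised to 4. These 2 probe sets were the only forkhead ones higher by at least 1 without overlap, which was true of 6.66% of tested probe sets. Of the 2, 1421141_a_at had a wild-type mean of 3.48 and a deleted mean of 4.99, so it passed the filter only through the deleted arrays. The count of 2 was 4 without deleted replicate 1 and 1 without wild-type replicate 1.

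The remaining Foxp1 probe sets did not separate the groups. Probe set 1435221_at read 8.07 and 7.40 in Foxp3-deleted arrays, against 7.78 and 8.36 in wild-type arrays, a difference of -0.33. Probe set 1438802_at read 6.83 and 6.92 in Foxp3-deleted arrays, against 6.43 and 7.32 in wild-type arrays, so the deleted arrays lay between the wild-type ones and the means differed by -0.0015. Probe set 1443258_at read 4.35 and 4.28 in Foxp3-deleted arrays, against 4.46 and 4.27 in wild-type arrays, all close to the filter. The platform annotation traces the 8 probe sets to 4 source records. The 3 probe sets from the record behind 1435222_at disagreed in sign, from -0.33 to 0.92, whereas the 3 from the record behind 1421142_s_at were all higher, from 0.85 to 1.52. No source used here says which Foxp1 transcripts each probe set reads.

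**Figure D2:**
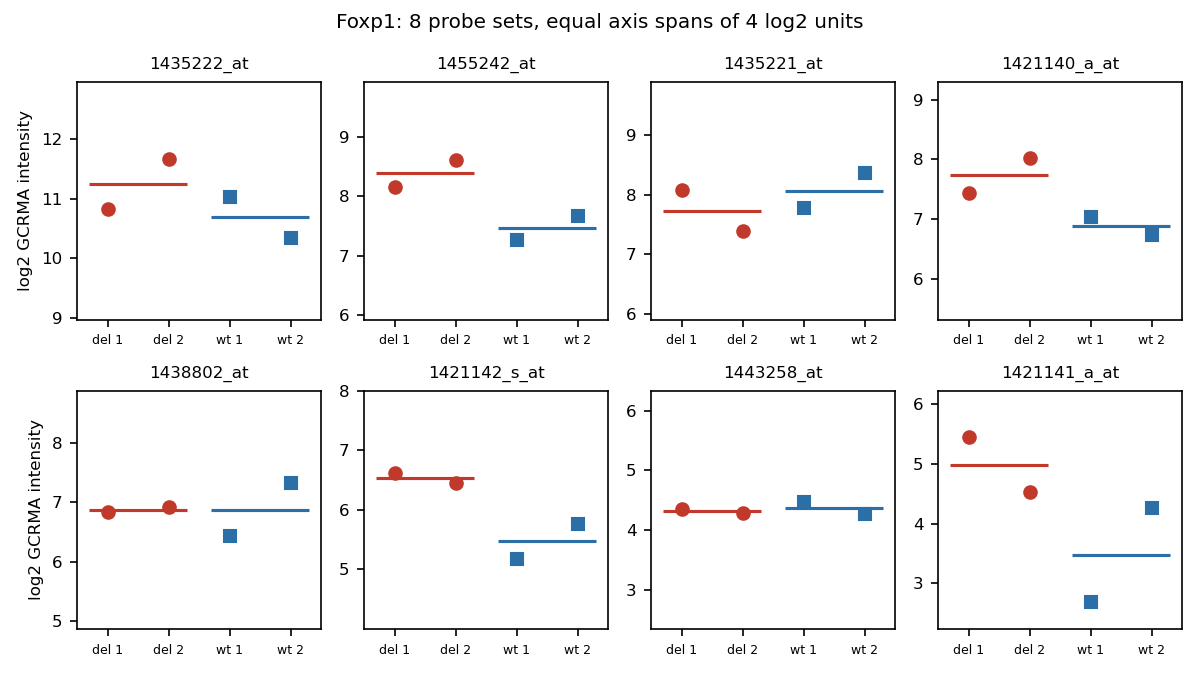
The 8 Foxp1 probe sets, brightest first, with log2 GCRMA intensity on the vertical axis (a span of 4 in every panel) and the arrays on the horizontal axis (del, Foxp3-deleted, red circles; wt, Foxp3 wild-type, blue squares). Horizontal lines are group means. Both deleted arrays lie above both wild-type arrays in 1455242_at, 1421140_a_at, 1421142_s_at and 1421141_a_at, and in 1435221_at the deleted mean is the lower.

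Foxp4, the remaining FOXP gene of T cells, showed no separation of the groups. Its brightest probe set, 1429719_at, read 5.88 and 7.35 in Foxp3-deleted arrays, against 6.26 and 6.11 in wild-type arrays. Deleted replicate 2 was alone in reading high, and the difference of 0.42 (SE 0.57, 95% interval -1.04 to 1.89) was -0.31 without it. Probe set 1431437_at read 4.40 and 4.65 in Foxp3-deleted arrays, against 4.81 and 4.33 in wild-type arrays, a difference of -0.04. The remaining probe set, 1431088_at, was below the filter.

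Of the 5 tested FOXO probe sets of Foxo1 and Foxo3, 4 had a lower mean in Foxp3-deleted cells and 3 were lower without overlap. Among all tested probe sets 20.8% were lower without overlap, and 50.5% had a higher mean. Foxo1, which drives Il7r and Klf2 in T cells and is needed for Treg function, had 3 tested probe sets from a single source record, and their differences ran from -0.54 to 0.20. Its brightest, 1416983_s_at, read 10.09 and 10.58 in Foxp3-deleted arrays, against 10.57 and 10.46 in wild-type arrays. Probe set 1416982_at read 6.75 and 6.95 in Foxp3-deleted arrays, against 7.38 and 7.41 in wild-type arrays. Both deleted arrays were lower there (difference -0.54, SE 0.34, 95% interval -1.41 to 0.33, adjusted p = 0.697 in limma). Probe set 1416981_at read 6.82 and 8.05 in Foxp3-deleted arrays, against 7.82 and 6.66 in wild-type arrays. Each group held a high and a low array there, more than 1 log2 unit apart, and the difference of 0.20 had a 95% interval from -1.41 to 1.80.

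Foxo3, which acts with Foxo1 in Treg cells and drives the pro-apoptotic gene Bcl2l11, had 2 tested probe sets, also from a single source record, and both were lower without overlap. Probe set 1434832_at read 6.02 and 6.24 in Foxp3-deleted arrays, against 6.88 and 6.93 in wild-type arrays. Probe set 1434831_a_at read 8.65 and 9.33 in Foxp3-deleted arrays, against 9.42 and 9.50 in wild-type arrays, so deleted replicate 2 came close to the wild-type arrays. The differences were -0.78 (SE 0.34, 95% interval -1.66 to 0.10) and -0.47 (SE 0.36, 95% interval -1.40 to 0.45), with adjusted p = 0.577 for 1434832_at and 0.744 for 1434831_a_at in limma. Without deleted replicate 1 the value for 1434831_a_at was -0.13. Over all tested probe sets 20.8% were lower without overlap, and 5 of the 21 forkhead probe sets were: Foxp3, 1 of Foxo1, 2 of Foxo3 and 1 of Foxn3.

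Foxj2, Foxj3 and Foxn3 are more widely expressed forkhead genes, and Foxn3 encodes a repressor first known as a checkpoint suppressor. All of their 5 tested probe sets differed by less than 0.2 on the log2 scale. Foxj2 (1420374_at) read 7.20 and 7.44 in Foxp3-deleted arrays, against 7.46 and 7.04 in wild-type arrays, a difference of 0.07. Foxj3 (1435362_at) read 10.15 and 10.01 in Foxp3-deleted arrays, against 9.47 and 10.45 in wild-type arrays, a difference of 0.12. Here the wild-type arrays were the ones that spread, and the deleted arrays lay between them. The brightest Foxn3 probe set, 1434002_at, read 8.83 and 8.79 in Foxp3-deleted arrays, against 8.84 and 9.15 in wild-type arrays. Its groups did not overlap, but deleted and wild-type replicate 1 were almost level, and the difference was -0.19 (SE 0.31). For the other tested Foxn3 probe sets, 1438255_at and 1436925_at, the groups overlapped and the differences were 0.07 and 0.02. Their 95% intervals ran from -0.78 to 0.92 and from -0.84 to 0.89.

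The 7 forkhead probe sets below the filter (1 each of Foxp4, Foxo1, Foxo3, Foxj2 and Foxn3 and 2 of Foxj3) reached at most 4.13 on any array and differed by -0.07 to 0.37. At this end of the scale GCRMA narrows differences, and these probe sets were not tested.

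**Figure D3:**
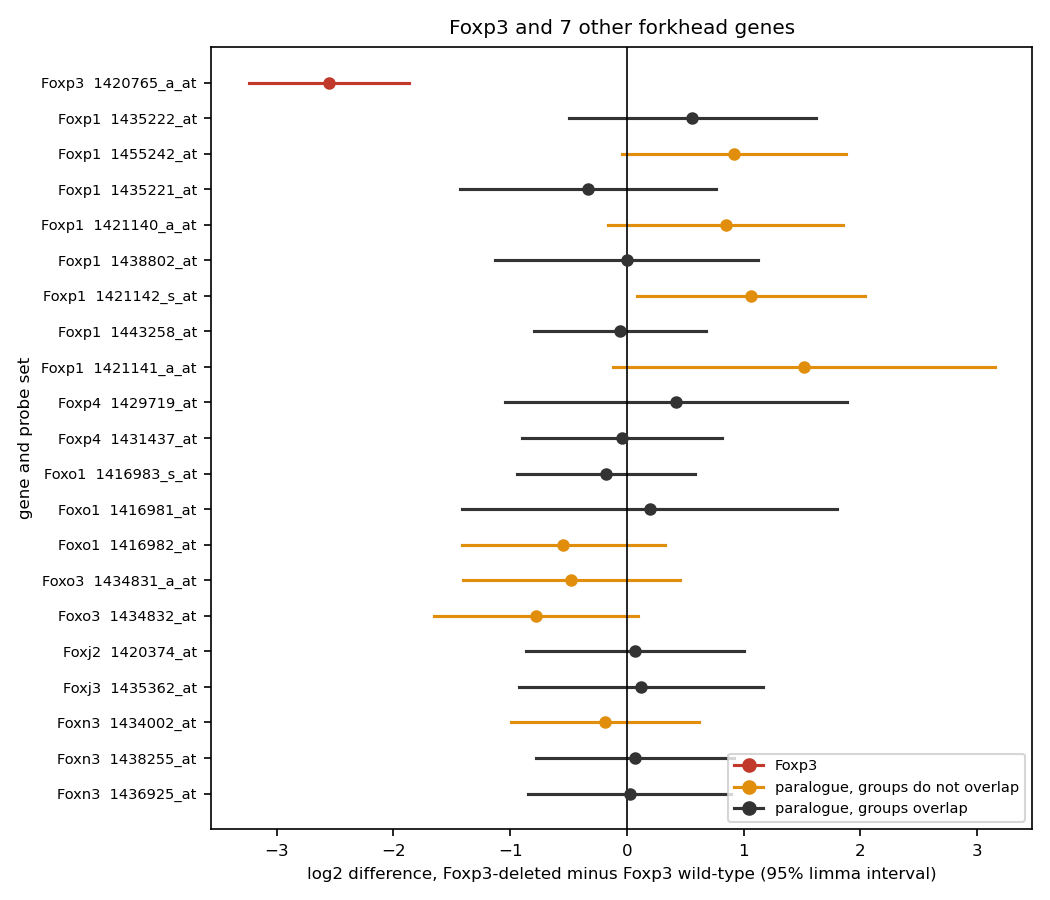
Difference in log2 intensity, Foxp3-deleted minus Foxp3 wild-type (horizontal axis), for the 21 tested forkhead probe sets (rows). Points are means and bars are 95% limma intervals, with Foxp3 in red, paralogues whose groups do not overlap in orange and those that overlap in black. The Foxp3 interval lies below every paralogue interval, and 19 of the 20 paralogue intervals hold 0.

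No paralogue probe set was lower by as much as that of Foxp3. Groups did not overlap for 9 of the 21 forkhead probe sets, 5 lower and 4 higher in Foxp3-deleted cells, against 39.9% of all tested probe sets. The 20 tested probe sets of the 7 paralogues differed by -0.78 to 1.52, with a median of 0.05, SEs of 0.29 to 0.64 and adjusted p of 0.483 to 1 in limma. The 95% interval of 19 of them held 0, and no interval (lowest bound -1.66) reached -2.55. Foxp3 was also set against its paralogues within each array, by the log2 ratio of the Foxp3 probe set to each paralogue probe set. A constant scale factor of an array cancels in such a ratio, but a processing step that depends on intensity does not. In 20 of 20 ratios both Foxp3-deleted arrays lay below both wild-type arrays. The differences in log2 ratio ran from -4.07 for Foxp1 1421141_a_at to -1.77 for Foxo3 1434832_at. The lowest of these rested on the reading of 2.68 in wild-type replicate 1, near the floor, and the next lowest was -3.62 for Foxp1 1421142_s_at. As an example, the ratio of Foxp3 to Foxn3 1434002_at was -0.06 and -0.05 in Foxp3-deleted arrays, against 2.55 and 2.08 in wild-type arrays. Each of the 20 exact two-sided permutation tests over the 4 arrays gave p = 0.333, also after Benjamini-Hochberg adjustment, which is the smallest p that 2 arrays against 2 allow. The ratios share the Foxp3 values and so are not 20 separate observations. Foxp3 is the gene whose deletion defines the groups, and its own drop was enough to put the deleted arrays lower in every ratio.

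The rest of the forkhead family was mostly dim. Of 29 other forkhead genes on the array, 5 had their brightest probe set above the filter, and none had an unadjusted p below 0.05. Foxk1, which encodes a repressor of autophagy genes, read 8.60 and 9.23 in Foxp3-deleted arrays, against 8.59 and 8.25 in wild-type arrays, a difference of 0.50 (SE 0.38, adjusted p = 0.744 in limma). It was the only gene of the 5 without overlap, and deleted replicate 1 and wild-type replicate 1 were nearly equal. Foxo4, a further FOXO gene, differed by -0.05, Foxd2 by -0.07, Foxn2 by 0.16 and Foxk2 by -0.11. The 3 Foxk2 probe sets ran from -0.22 to 0.49.

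Genes that FOXO proteins are known to control differed in both directions. Of 31 listed, 29 were on the array with a symbol of their own and 23 were tested, with 14 higher and 9 lower in Foxp3-deleted cells and a median difference of 0.18, against -0.02 over all 8629 genes tested, of which 48.1% were higher. Groups did not overlap for 7 higher and 3 lower genes (30.4% and 13.0%), where the background over genes was 17.7% higher and 22% lower. None passed an adjusted p of 0.05 in limma, but 9 of the 23 had an unadjusted p below 0.05, 6 higher and 3 lower. Among all genes tested the share was 9.71%. The list was chosen with earlier results of these data known, so the larger share is a description only. Ctla4 is also among the Treg markers above, and S1pr1 passed the filter only through the Foxp3-deleted arrays. Bcl2l11, which encodes the pro-apoptotic protein BIM, read 10.40 and 11.26 in Foxp3-deleted arrays, against 8.41 and 8.73 in wild-type arrays, a difference of 2.26, and its 3 probe sets ran from 0.69 to 2.26. Klf2, a factor of T cell quiescence and trafficking, read 9.95 and 10.80 in Foxp3-deleted arrays, against 8.49 and 8.90 in wild-type arrays, a difference of 1.68. S1pr1, the Klf2 target that allows exit from lymphoid tissue, read 5.30 and 4.81 in Foxp3-deleted arrays, against 3.09 and 3.26 in wild-type arrays. The wild-type values lay near the floor, and with values below 4 raised to 4 the S1pr1 difference of 1.89 was 1.06. Ccr7, a homing receptor for lymph nodes, was higher by 0.89 (SE 0.34). Il7r, the interleukin-7 receptor, read 13.19 and 12.23 in Foxp3-deleted arrays, against 12.25 and 12.21 in wild-type arrays. The Il7r difference of 0.48 rested on deleted replicate 1 and was 0.0032 without it, and its other probe set differed by 1.82. Ctla4, an inhibitory receptor that both FOXO proteins and FOXP3 control in Treg cells, read 9.19 and 9.03 in Foxp3-deleted arrays, against 12.26 and 12.75 in wild-type arrays, a difference of -3.39 (SE 0.29, adjusted p = 0.0956 in limma). Sesn1, a stress-induced inhibitor of mTORC1 signalling, and Insr, the insulin receptor gene, were the other 2 genes lower without overlap, and are named after their values were seen. Sesn1 differed by -1.54 (SE 0.37), with 4 probe sets from -2.26 to -1.05, and Insr by -0.98 (SE 0.36). The remaining genes higher without overlap, also named after their values were seen, were Cited2, Tgfbr2 and Bcl6. Cited2 differed by 1.29 (SE 0.50), and by 0.73 without deleted replicate 1. Tgfbr2 differed by 1.25 (SE 0.40) and Bcl6 by 0.37 (SE 0.34). The list median was 0.43 without deleted replicate 2 and 0.46 without wild-type replicate 2, and 0.03 and 0.01 without the other array of each group.

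Genes that act on FOXO proteins, among them kinases and phosphatases of the PI3K and AKT pathway, the Ywha adaptor proteins that hold FOXO proteins in the cytoplasm, and enzymes that acetylate, deacetylate or degrade them, were about evenly split, with 16 of 31 tested genes higher and 15 lower (median 0.06). None of these, and none on the lists of Foxp3 partners and locus regulators that follow, passed an adjusted p of 0.05 in limma. Groups did not overlap for 8 higher and 4 lower genes (25.8% and 12.9%), against 17.7% and 22% of all genes tested. An unadjusted p below 0.05 was found for 4 of the 31, against 9.71% of all genes tested. Phlpp1, a phosphatase that inactivates AKT, read 5.84 and 5.28 in Foxp3-deleted arrays, against 8.34 and 9.01 in wild-type arrays. The Phlpp1 difference was -3.11 (SE 0.43, 95% interval -4.22 to -2.01, adjusted p = 0.151 in limma), larger in size than that of Foxp3. Pik3cg, a catalytic subunit of PI3K, read 8.31 and 9.32 in Foxp3-deleted arrays, against 6.81 and 6.93 in wild-type arrays, a difference of 1.94 that was 0.50 on its other probe set. Pik3r5, the regulatory subunit that pairs with Pik3cg, was higher by 1.09 (SE 0.41). Akt1 differed by 0.57 (SE 0.56) on the brighter of its 2 probe sets and by -0.27 on the other, and Sgk1, a kinase that also phosphorylates FOXO proteins, differed by 0.49 (SE 0.45). Groups overlapped for both genes on the brightest probe set. Akt1 was -0.13 without deleted replicate 2, and Sgk1 was 0.01 without deleted replicate 1. Skp2, part of the ubiquitin ligase that degrades FOXO1, read 5.69 and 6.03 in Foxp3-deleted arrays, against 8.71 and 6.44 in wild-type arrays. Wild-type replicate 1 alone was high, the difference of -1.71 was -0.58 without it, and the 3 Skp2 probe sets ran from -1.71 to 1.62.

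Genes whose proteins bind Foxp3 numbered 15 higher and 14 lower among 29 tested, with a median of 0.01. Groups did not overlap for 7 higher and 8 lower genes (24.1% and 27.6%), against 17.7% and 22% of all genes tested. At an unadjusted p below 0.05 there were 4 of the 29, against 9.71% of all genes tested. Ikzf4 (Eos), a corepressor of Foxp3, read 7.10 and 8.91 in Foxp3-deleted arrays, against 10.92 and 10.01 in wild-type arrays. Its difference of -2.47 (SE 0.70, adjusted p = 0.389 in limma) was -1.56 without deleted replicate 1, and both of its probe sets were lower. Ikzf2 (Helios) read 10.10 and 11.69 in Foxp3-deleted arrays, against 12.96 and 12.79 in wild-type arrays, with a difference of -1.98 that was -1.19 without deleted replicate 1. Irf4, a partner of Foxp3 in effector Treg cells, differed by -1.66 (SE 0.40), and Chd4, a chromatin remodeller, was higher by 1.53 (SE 0.40). The 3 Chd4 probe sets ran from 0.10 to 1.85. Of other known partners, the differences on the brightest probe set were 0.09 for Cbfb, -0.10 for Gata3 and -0.10 for Nfatc1, whose 4 probe sets ran from -0.10 to 0.54. Satb1 (1.03), Stat3 (0.74), Rora (0.70), Nfatc2 (0.58), Hdac3 (-0.74), Gfi1 (-0.64) and Stub1 (-0.61) differed by more and without overlap. These genes were named after their values were seen. The closest deleted and wild-type arrays were nearly level for Satb1 (10.493 and 10.488) and Nfatc2 (10.102 and 10.094). The Satb1 difference was 0.41 without wild-type replicate 1, and that of Nfatc2 was 0.24 without deleted replicate 2. Runx1, the DNA-binding partner of Cbfb, read 8.64 and 10.06 in Foxp3-deleted arrays, against 7.93 and 8.12 in wild-type arrays. The Runx1 difference of 1.33 was 0.62 without deleted replicate 2, and its 3 probe sets ran from 0.17 to 1.33.

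Genes whose products act on the Foxp3 locus were 11 higher and 13 lower of 24 tested (median -0.12), and 5 of the listed genes are also on the list of partners. Groups did not overlap for 5 higher and 7 lower genes (20.8% and 29.2%), shares close to those of all genes tested (17.7% and 22%). At an unadjusted p below 0.05 there were 3 of the 24, against 9.71% of all genes tested. Nr4a3, a nuclear receptor gene induced by T cell receptor signals, read 6.92 and 7.39 in Foxp3-deleted arrays, against 9.21 and 8.58 in wild-type arrays, a difference of -1.74. Tet3, a DNA demethylase gene, read 6.50 and 8.03 in Foxp3-deleted arrays, against 4.97 and 5.74 in wild-type arrays, a difference of 1.91 (SE 0.63). Deleted replicate 1 lay nearer to the wild-type arrays, and the Tet3 difference was 1.14 without deleted replicate 2. Creb1, which binds a demethylated Foxp3 enhancer, was higher by 1.49 (SE 0.36) on its brightest probe set, and its 4 probe sets ran from -0.44 to 1.49. The median of this list turned to 0.14 without deleted replicate 1 and to 0.17 without wild-type replicate 2.

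**Figure D4:**
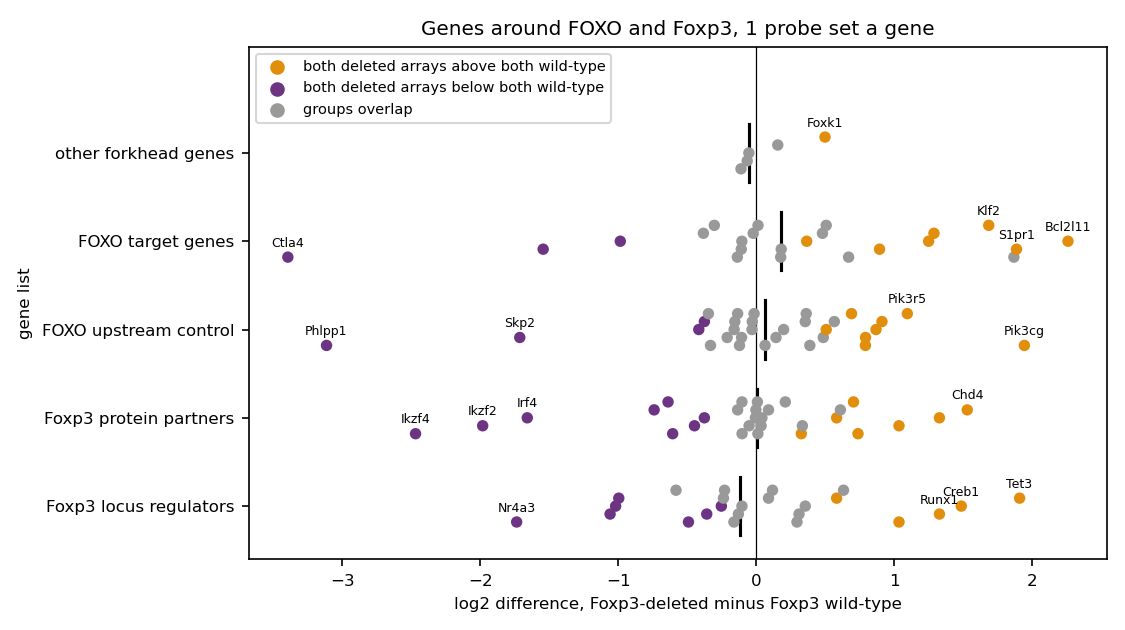
Difference in log2 intensity, Foxp3-deleted minus Foxp3 wild-type (horizontal axis), for the tested genes of 5 lists (rows), 1 probe set a gene. Orange points have both deleted arrays above both wild-type arrays, purple points both below, and grey points overlap, and black bars are list medians. The medians lie between -0.12 and 0.18, while Ctla4 and Phlpp1 lie below -3.

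The probe sets most like Foxp3 were found by the root mean square difference between log2 values over the 4 arrays, after each probe set was centred on its own mean. They were those of Ighm (0.09), Alox8 (0.11), Fam81a (0.11), Pdzk1ip1 (0.12) and Rgs16 (0.13). Ighm, the immunoglobulin mu heavy chain gene, read 8.28 and 8.35 in Foxp3-deleted arrays, against 10.74 and 10.75 in wild-type arrays, and its other tested probe set differed by -2.22. Rgs16, a regulator of G protein signalling, read 6.91 and 6.60 in Foxp3-deleted arrays, against 9.19 and 9.19 in wild-type arrays. That their replicates lay close together, as for Foxp3, follows from how these probe sets were picked. Of the other probe sets, that of Alox8 lay below the filter of 4 in Foxp3-deleted arrays and that of Fam81a just above it. Alox8, a lipoxygenase gene, read 2.92 and 2.89 in Foxp3-deleted arrays, against 5.82 and 5.47 in wild-type arrays, and with values below 4 raised to 4 its difference of -2.74 was -1.64. Fam81a read 4.001 and 4.08 in Foxp3-deleted arrays, against 6.52 and 6.25 in wild-type arrays. Pdzk1ip1 read 4.87 and 5.17 in Foxp3-deleted arrays, against 7.61 and 7.44 in wild-type arrays. With 4 arrays in 2 groups, any probe set with a steady difference of this size ranks high by this measure.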

How the data were processed

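The authors deposited 1 table of GCRMA intensities, which are on a linear scale. Per the submitters' processing notes they were made with GCRMA 1.1.3, and no source used here gives other settings. GCRMA subtracts a background estimated from probe sequence, so dim probe sets lie close to a lower limit and differ less on the log2 scale. Intensities were converted to log2 without a pseudocount. Per the labels, RNA was extracted with Qiagen RNeasy and amplified with the Ambion Message Amp II kit. The median intensity per array was 8.38 to 8.94, no 2 arrays were the same, and the number of arrays limits precision.

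Of 45101 probe sets, 932 with several symbols, 9160 with none and 64 controls were left out. Those with a mean log2 of at least 4 were fitted in limma 3.58.1 (R 4.3.3; lmFit, then eBayes with an intensity trend), with two-sided p-values adjusted by Benjamini-Hochberg over all 13999 and a threshold of 0.05. The fit had 2 residual degrees of freedom. It was tested on simulated data. Lists used the brightest probe set of each gene (8629 genes). Named genes were all members, other forkhead genes past the filter, the 4 largest non-overlapping differences of each list, listed genes chosen as well known in FOXO or Foxp3 biology (Il7r, Klf2, S1pr1, Ccr7, Bcl2l11, Ctla4, Runx1, Cbfb, Nfatc1, Gata3, Ikzf2, Akt1 and Sgk1) and the 5 patterns nearest to Foxp3. Cell type markers and genes said to be named after their values were seen are exceptions. Some genes on the pathway lists were not analysed here. Members, lists and tests were chosen with earlier results of these data known. Same-numbered arrays deviated in opposite directions (correlation -0.274 over probe sets), so replicate numbers were not used to pair samples. Alternatives covered the filter, a floor, a pseudocount of 16, scaling, the intensity trend, 1 probe set a gene, a replicate block and leaving out each array. Tables were made in Python 3.11.15 with pandas 2.3.3 and plots with matplotlib 3.10.9. Promoter windows are RefSeq's (GRCm38.p6), and all 8 genes had at least 1.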

Additional observations from a re-analysis of the deposited data

How the results depend on the processing

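The Foxp3 difference kept its sign and missed the threshold of 0.05 under all 13 alternatives, with values from -2.63 to -2.47, and adjusted p in limma between 0.0502 (filter of at least 6) and 0.661. With a replicate block it was -2.55 (adjusted p = 0.374). No forkhead probe set passed 0.05 under any of 14 alternatives. Over all probe sets the count past 0.05, which was 0, became 18 with the filter of at least 6, 15 with quantile normalization and 28 with each array centred on its median. It stayed at 0 with the replicate block and with the crossed pairing of replicate numbers, which was added after the data were seen. The count of forkhead probe sets higher by at least 1 without overlap (2) was 1 with the filter of at least 6, 1 with values below 4 raised to 4, 0 with a pseudocount of 16, 0 with 1 probe set a gene, and 1 to 4 when an array was left out; the stricter filter and 1 probe set a gene leave fewer probe sets. Other list medians that moved were those of FOXO targets (-0.022 without a filter, and 0.0098 to 0.46 when an array was left out), FOXO control (-0.025 with quantile normalization, and 0.011 to 0.23 when an array was left out), other forkhead genes (0.16 with the filter of at least 6) and Foxp3 locus regulators (-0.18 to 0.17 when an array was left out), and the cause was not tested. Some paralogue differences turned sign when an array was left out. Most of these were near 0, but they included 0.42 (Foxp4 1429719_at) and -0.33 (Foxp1 1435221_at). Ranges for Foxp1 were -0.67 to 0.0057 (1435221_at), -0.45 to 0.45 (1438802_at) and -0.15 to 0.040 (1443258_at). Those for Foxp4 were -0.31 to 1.16 (1429719_at) and -0.28 to 0.20 (1431437_at). For Foxo1 they were -0.43 to 0.069 (1416983_s_at) and -0.42 to 0.81 (1416981_at). Foxj2 ran from -0.13 to 0.28 and Foxj3 from -0.37 to 0.61. Foxn3 ran from -0.11 to 0.25 (1438255_at) and from -0.12 to 0.16 (1436925_at, and -0.016 with quantile normalization). With an array left out, the lone sample of its group is assumed to vary like the other group.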
